A study of Rattus norvegicus with 9 samples.

Results

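The cytosolic ribosomal protein genes were examined in the rat supraoptic nucleus, where magnocellular neurons of the hypothalamus produce the hormones vasopressin and oxytocin. Members were all probe sets annotated with exactly 1 gene symbol of the Rpl or Rps series, including Rpsa and Rplp0 and leaving out the S6 kinases, which gave 63 of 8740 probe sets and 43 of 4736 genes. They comprised Rplp0, 25 other proteins of the 60S subunit and 11 of the 40S subunit, 4 paralogs or like genes (Rpl3l, Rps27l, Rpl36al1 and Rpl19l4), and the pseudogenes Rps2-ps1 and Rps4x-ps9. Rplp1, Rplp2, Rps27a, Rpl10 and Rps19 had no probe set annotated with that symbol alone, and 40 further probe sets that name a ribosomal protein among several symbols were not counted as members. Total RNA of male Sprague Dawley rats aged 10 to 12 weeks was hybridised to 9 Affymetrix arrays: 3 from controls, 3 from rats dehydrated for 1 day and 3 from rats dehydrated for 3 days, lettered a, b and c in each. Whether 1 array stands for 1 animal or for a pool is not stated, so the p-values cover the spread among these arrays alone, and part of it may be technical.

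A cytosolic ribosome joins a small 40S subunit, which reads the messenger RNA, to a large 60S subunit, which forms the peptide bond, and each subunit carries one copy of most of its proteins. In vertebrates the messenger RNAs of ribosomal proteins are typically short and abundant and begin with a C followed by a run of pyrimidines, the 5′ terminal oligopyrimidine (TOP) motif, through which mTOR signalling controls their translation. Magnocellular neurons are known to enlarge and to raise peptide synthesis when water is withheld. The arrays measured RNA abundance, not translation.

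The TOP motif is the sequence feature that this gene family is known for, so the annotated transcription starts were read from the RefSeq promoter table (assembly GRCr8), which had a window for 36 of the 43 genes. The 30 bases around the start are shown 5′ to 3′ for 6 genes with a match that are described below and for 2 without one. Only the 11 bases centred on the start were searched: capitals mark a C followed by at least 4 C or T in a row, all inside those bases, and a run that goes on past them is in lower case there.
Rplp0 (chr12:46718376-46718405, minus strand): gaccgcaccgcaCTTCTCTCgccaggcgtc
Rps15 (chr7:10068101-10068130, minus strand): cgctgacaccgCTTCCTTTTCccagcagcc
Rpl19 (chr10:83519049-83519078, plus strand): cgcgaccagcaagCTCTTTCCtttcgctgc
Rpl27a (chr1:172974558-172974587, plus strand): cgagacttggtgggCTCCTCCctctttctt
Rpl4 (chr8:73566462-73566491, plus strand): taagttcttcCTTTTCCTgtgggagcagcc
Rpl22 (chr5:168117946-168117975, plus strand): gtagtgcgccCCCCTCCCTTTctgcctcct
Rps16 (chr1:92770643-92770672, plus strand): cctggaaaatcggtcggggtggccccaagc
Rps6 (chr5:106420526-106420555, minus strand): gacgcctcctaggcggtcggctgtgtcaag

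On the transcribed strand, 16 of the 36 windows (44.4%) held such a run wholly inside those 11 bases, against 11.7% of all 33469 promoters in the table and 11.3% of the 21842 promoters of protein-coding genes. Within 41 bases centred on the start the share was 80.6% of the ribosomal protein genes, against 44.8% of all promoters. A match describes these letters at the annotated start and says nothing of where transcription starts in this nucleus. Among the genes shown with a match, the fold change at 3 days against control was positive for Rplp0, Rps15, Rpl19 and Rpl27a. It was negative for Rpl4 and Rpl22. On the log2 scale Rps15 had 0.38 ± 0.31 in its brightest probe set and -0.15 ± 0.68 in another. The values of the other genes depended on single arrays or on the scaling. Without the 3-day b array the log2 fold change was -0.05 ± 0.28 for Rpl4 and -0.09 ± 0.52 for Rpl22. Under quantile normalization it was 0.01 for Rpl19, -0.07 for Rpl27a and -0.11 for Rplp0. Whether genes with a match differed from those without one was not tested.

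The arrays differed in range. The median signal over all probe sets lay between 26.9 and 40.4 and the brightest signal between 2105 and 6295; the control c and 1-day c arrays had the lowest values of both. Of the member genes, 42 (60 probe sets) passed the filter on low signals, a mean of at least 23.1; both Rps2-ps1 probe sets and 1 of the 2 Rpl3l probe sets did not. Of these 42 genes, 28 (66.7%) were among the brightest 10% of tested probe sets, which began at a mean signal of 527. All 6 magnocellular markers (Avp, Oxt, Pdyn, Vgf, Chgb and Scg2) passed the filter, with summed signals of 3896 to 7528 on the control arrays, 3824 to 8624 on the 1-day arrays and 9578 to 12470 on the 3-day arrays. By gene the markers did not move alike: at 3 days against control the log2 fold change was positive for 4, among them Avp (0.95 ± 0.33) and Oxt (1.72 ± 1.05), and negative for Chgb (-0.57 ± 0.30) and Scg2 (-0.04 ± 0.46), with 0 called by limma. The 3 erythroid markers on the array had sums of 2599 to 2978 on control arrays, 3290 to 4497 on 1-day arrays and 1505 to 2159 on 3-day arrays, with no overlap of the groups. The 6 microglial markers, 4 of them under the filter, summed to 1164 to 1268, 1224 to 1865 and 1368 to 1444 in the same order. Sums of the general neuronal, astrocyte, oligodendrocyte and vascular markers overlapped between each dehydrated group and the controls. These sums moved beside the results below, and their part in them was not tested. In tissue RNA, fewer cells of a type and less RNA per cell cannot be told apart.

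No ribosomal protein gene passed the test after 1 or 3 days without water, and the genes as a group had median differences close to those of the whole array. At 1 day against control, 18 of the 42 genes were higher and 24 lower by sign, with a median log2 fold change of -0.07, against 0.02 over all tested probe sets. That median was -0.12 without the 1-day b array, -0.11 without control c and -0.02 over the 33 member probe sets whose names end in a plain _at. At 3 days against control, 20 were higher and 22 lower, with a median of -0.01, against 0.02 over all. At 3 days against 1 day, 24 were higher and 18 lower, with a median of 0.13, against 0.001 over all and 0.12 over the brightest 10% of probe sets. In each comparison 0 of the 42 genes had a limma adjusted p under 0.05, as did 0.0% of the 5247 probe sets tested. An F test across the groups called no probe set either. An unadjusted limma p under 0.05 was reached by 1, 0 and 1 of the 42 genes in the 3 comparisons. Over all tested probe sets 1.01%, 1.7% and 1.8% reached it. With the replicate letter as a block, 2 of the 42 genes reached it in each comparison. So did 136, 270 and 275 of all 5247 tested probe sets with that block. The lowest limma adjusted p of any member was 1.00 at 1 day, 0.9998 at 3 days and 0.998 between the 2 times, and 0.958, 0.873 and 0.770 with the block.

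The precision behind these counts can be read from the intervals. The standard error of a log2 fold change had a median of 0.32 over the ribosomal protein genes, against 0.40 over all tested probe sets. With the replicate letter as a block these medians were 0.22 and 0.30. The intervals described here are from the fit without the block. The fold change lay within 0.5 of zero on the log2 scale for 36 of 42 genes at 1 day (85.7%), against 82.2% of all tested probe sets. At 3 days it did so for 35 of 42 genes (83.3%), against 81.7% of all. The whole 95% interval lay inside a 2-fold change in either direction for 29 of 42 genes at 1 day (69.0%), against 40.2% of all, and for 25 of 42 at 3 days (59.5%), against 37.4% of all. For the remaining genes the interval reached past a 2-fold difference, which this fit with 3 arrays in a group could not resolve.

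**Figure D1:**
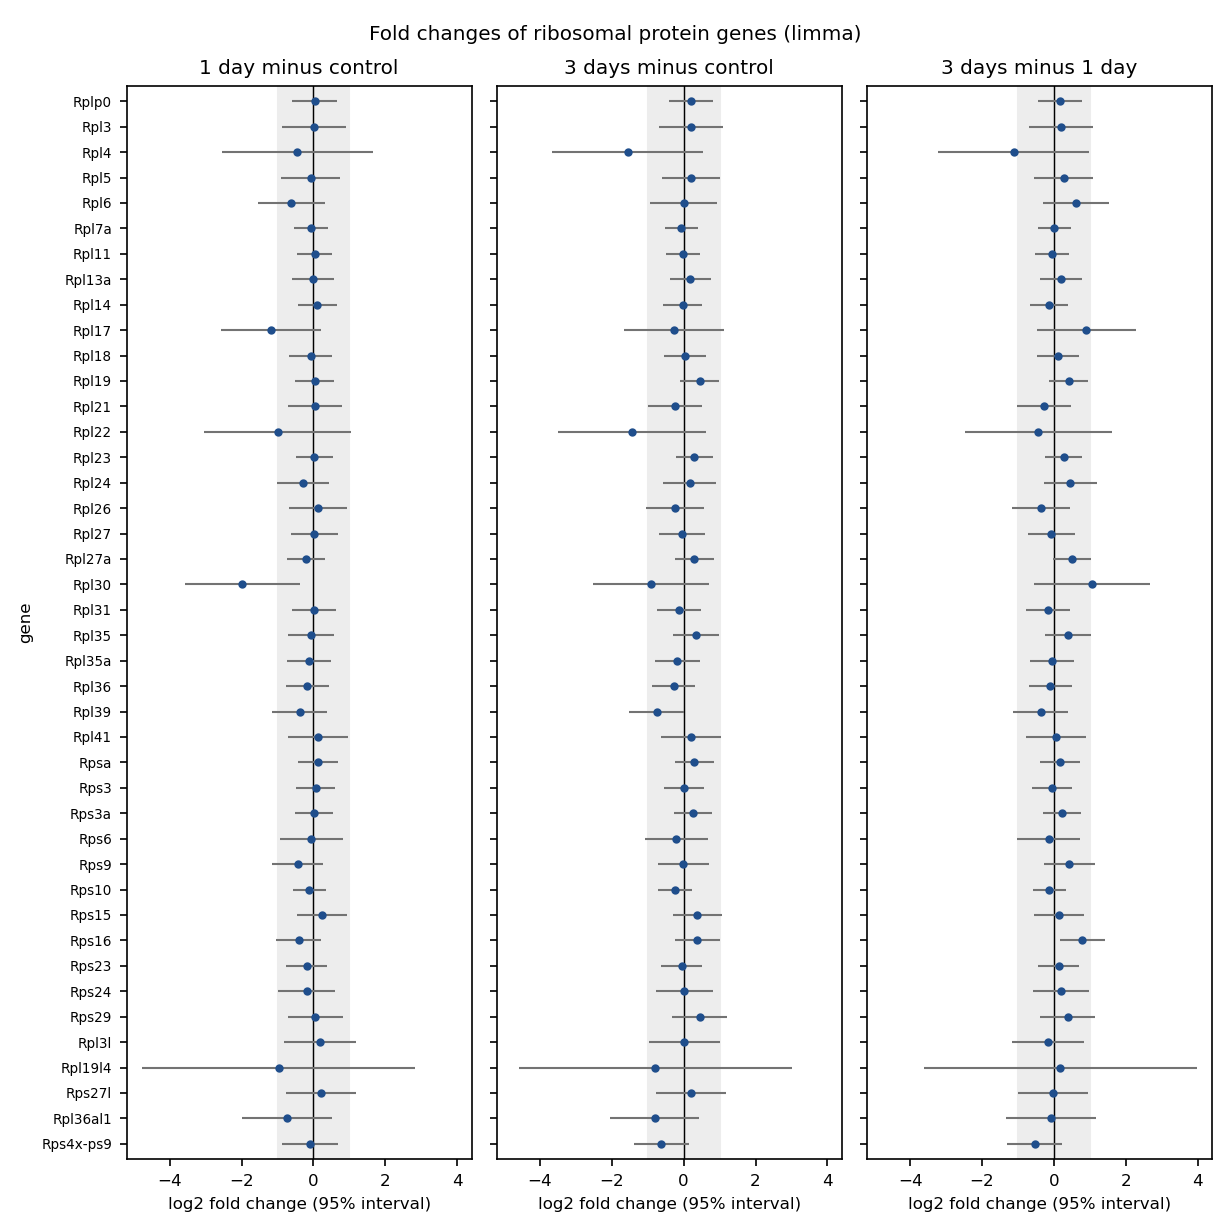
Log2 fold change on the log2(signal + 4) scale (horizontal axis) of the 42 tested ribosomal protein genes (rows), with 95% intervals from limma as lines and the range of a 2-fold change in either direction shaded. Most points lie near 0, and the wide intervals belong to Rpl4, Rpl17, Rpl22, Rpl30, Rpl36al1 and Rpl19l4, each of which has at least 1 array far from the rest.

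By subunit, the counts were as follows. Of the 25 genes of the 60S subunit, 10 were higher and 15 lower at 1 day (median -0.07), and the same numbers held at 3 days (median -0.03). Of the 11 genes of the 40S subunit, 5 were higher and 6 lower at 1 day (median -0.06), and 7 were higher and 4 lower at 3 days (median 0.01). Within the letters, the median over all 42 genes at 1 day against control was -0.04, -0.14 and 0.03 for a, b and c, and at 3 days against control it was 0.02, 0.02 and -0.08. Neither time gave one sign in all 3 letters. At 3 days against 1 day the letters gave 0.04, 0.09 and 0.17, all above zero, as did the brightest 10% of probe sets with 0.04, 0.11 and 0.19. The 39 tested probe sets that name a ribosomal protein among several symbols had medians of -0.06, -0.02 and 0.05 in the 3 comparisons, with 0 called.

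**Figure D2:**
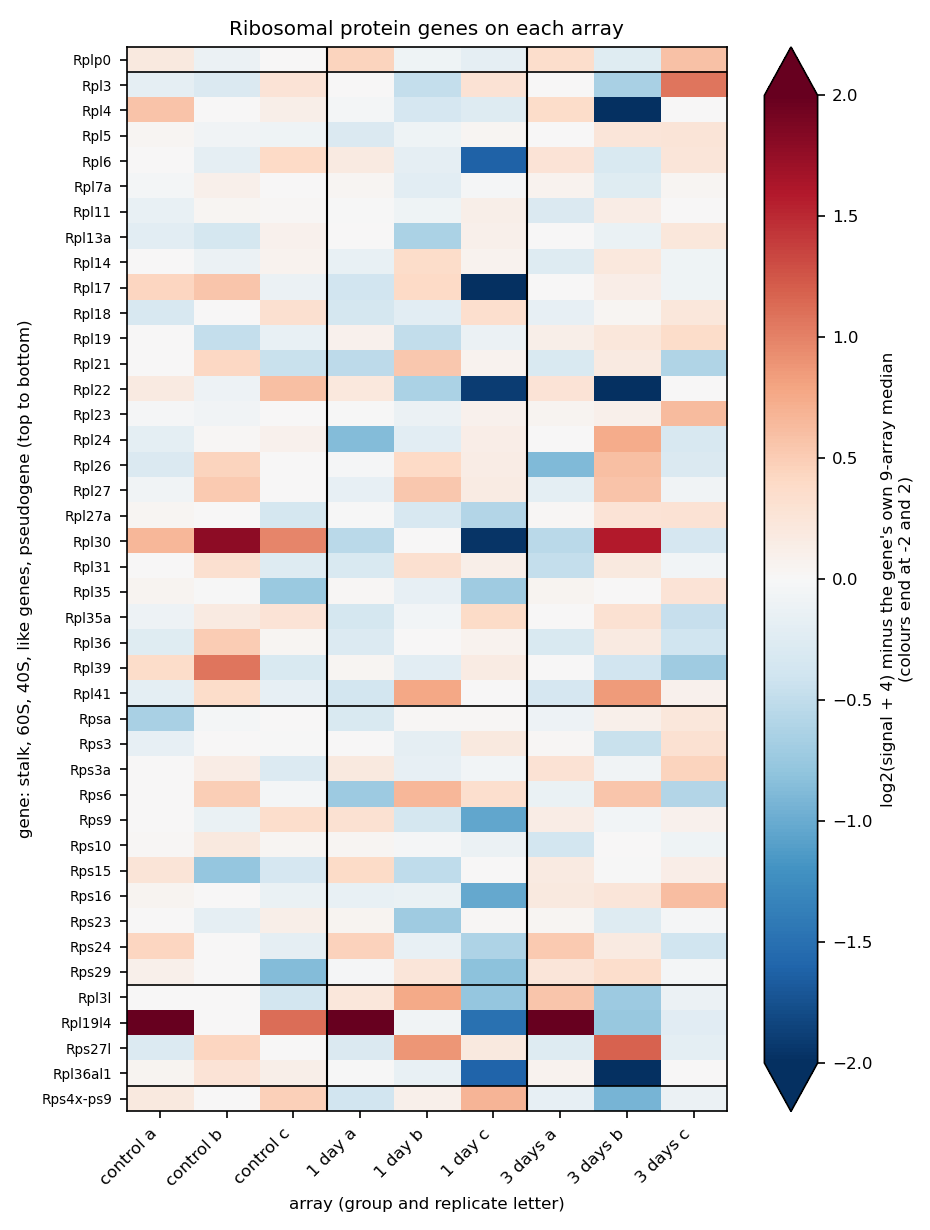
Each gene's log2(signal + 4) on each array (columns, in the order control, 1 day, 3 days) minus that gene's own median over the 9 arrays, for the 42 tested ribosomal protein genes. No group of columns has one colour; single dark blue cells stand on the 1-day c and 3-day b arrays, and Rpl19l4 is dark red on the a array of every group.

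Rplp0, the scaffold of the acidic stalk that binds elongation factors, had signals of 1749, 1414 and 1534 on the control arrays a, b and c, of 2090, 1448 and 1350 at 1 day and of 1948, 1296 and 2314 at 3 days. The 3 groups overlapped, with the lowest value at 3 days below every control. Its log2 fold change was 0.04 ± 0.28 (SE) at 1 day and 0.21 ± 0.28 at 3 days. Under quantile normalization both turned sign, to -0.07 and -0.11, and without the 1-day a array the first was -0.16.

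The 60S proteins Rpl5 and Rpl11 bind the 5S ribosomal RNA and, as free proteins, also the p53 regulator Mdm2. Their brightest probe sets had signals within a narrow range. Rpl11 had signals of 864, 994 and 978 in controls, 954, 909 and 1042 at 1 day and 785, 1070 and 963 at 3 days. The groups overlapped, and the mean was 945 ± 70.7 in controls, 968 ± 67.5 at 1 day and 939 ± 144 at 3 days (SD, n = 3 each). Its 95% interval at 3 days against control ran from -0.50 to 0.46. A second, dimmer Rpl11 probe set read 608 to 966 over the 9 arrays, with a log2 fold change of -0.19 ± 0.25 at 3 days. Rpl5 was dim, with signals of 24.2 to 26.9 in controls, 20.5 to 26.9 at 1 day and 26.0 to 31.7 at 3 days, close to the filter. Its log2 fold change at 3 days against control was 0.20 ± 0.37, with a 95% interval from -0.62 to 1.02.

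Rps6, the 40S protein phosphorylated by the S6 kinases, had signals of 910, 1281 and 888 in controls, 547, 1442 and 1152 at 1 day and 827, 1343 and 608 at 3 days. The b array was the highest of each group, and the groups overlapped; the log2 fold change was -0.06 ± 0.39 at 1 day and -0.20 ± 0.39 at 3 days. The signs depended on single arrays: with 1 of the 1-day arrays left out the first ran from -0.35 to 0.35, and the second was 0.06 without 3-day c and -0.51 without 3-day b. Rpsa, the 40S protein also known as the laminin receptor precursor, had signals of 758, 1155 and 1184 in controls, 955, 1199 and 1200 at 1 day and 1104, 1269 and 1387 at 3 days. The a array was the lowest of each group. The log2 fold changes of Rpsa were 0.13 ± 0.25 and 0.30 ± 0.25, positive in every letter for this probe set, and neither passed the test. Without the control a array they were -0.07 and 0.09. A second, dimmer Rpsa probe set did not have 1 sign in every letter. In control, 1-day and 3-day order it read 507, 680 and 774 on the a arrays and 870, 800 and 734 on the b arrays. On the c arrays it read 1207, 1171 and 1769.

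Rps3, a 40S protein at the messenger RNA entry channel with a known role in DNA repair, had log2 fold changes of 0.06 ± 0.25 at 1 day and 0.01 ± 0.25 at 3 days, -0.04 without the 1-day c array and -0.16 without the 3-day c array. Its signals were 1317 to 1492 in controls, 1304 to 1695 at 1 day and 1081 to 1830 at 3 days, and the groups overlapped. A second, dimmer Rps3 probe set had -0.60 ± 0.38 at 1 day and -0.10 ± 0.38 at 3 days. It read 317 on the 1-day c array, and its 1-day value was -0.15 ± 0.30 without that array.

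At 3 days the genes with the smallest unadjusted p among those higher than control were Rpl19, Rps16, Rpl23, Rps29 and Rpl27a, all within the brightest 10% of probe sets. Rpl19, which forms bridges between the subunits, had signals of 1983, 1418 and 1787 in controls, 2105, 1403 and 1834 at 1 day and 2144, 2326 and 2567 at 3 days. Every 3-day array lay above every control and every 1-day array. The log2 fold change was 0.45 ± 0.25 at 3 days against control, with a limma adjusted p of 0.9998, and 0.01 under quantile normalization.

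Rps16, a 40S protein that reaches the decoding region, had signals of 1745, 1682 and 1535 in controls, 1517, 1533 and 823 at 1 day and 1932, 1980 and 2584 at 3 days. All 3-day arrays lay above all controls, and all 1-day arrays lay below them, the c array farthest. The log2 fold change at 3 days was 0.38 ± 0.28, but 0.03 under quantile normalization and 0.24 without the 3-day c array. At 1 day it was -0.41 ± 0.28, and -0.12 without the 1-day c array. Between 3 days and 1 day it was 0.79 ± 0.28, the only member difference of that comparison with an unadjusted limma p under 0.05; it was 0.49 ± 0.25 without the 1-day c array and 0.60 under quantile normalization.

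Rpl23, which lies at the subunit interface, had signals of 1633, 1698 and 2456 at 3 days, against 1548, 1503 and 1577 in controls, without overlap, and a fold change of 0.30 ± 0.23 on the log2 scale, which was 0.11 without the 3-day c array. Rpl27a of the 60S subunit had 2141, 2081 and 1629 in controls, 2064, 1667 and 1388 at 1 day and 2119, 2519 and 2531 at 3 days. Its 3-day arrays overlapped the controls but lay above all 1-day arrays, by 0.50 ± 0.24 on the log2 scale and by 0.24 under quantile normalization. Under quantile normalization the log2 fold changes of Rpl23 and Rpl27a at 3 days against control turned to -0.02 and -0.07.

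Rps29, a zinc-binding 40S protein, had signals of 3112, 2905 and 1583 in controls, 2843, 3436 and 1636 at 1 day and 3452, 3700 and 2815 at 3 days. The 2 low values fell on the control c and 1-day c arrays, whose brightest signals over all probe sets were 2105 and 2239. The log2 fold change at 3 days against control was 0.44 ± 0.35, was 0.13 without those 2 arrays and turned to -0.06 under quantile normalization. A second Rps29 probe set read 946 and 1101 on those 2 arrays and 2323 to 4193 on the other 7, with 0.96 ± 0.46 at 3 days.

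**Figure D3:**
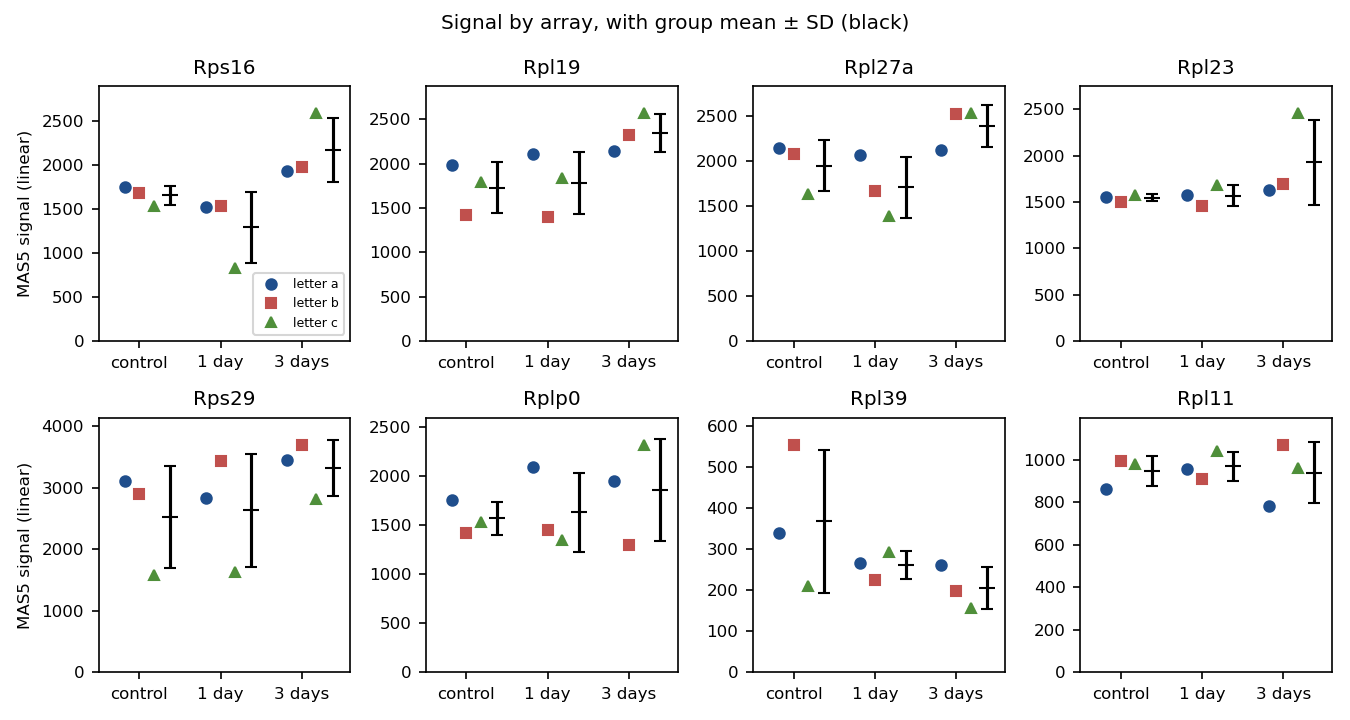
MAS5 signal on a linear axis from 0 for 8 ribosomal protein genes, 1 point per array with the letter as its symbol; black bars are the group mean ± SD (n = 3). Rps16, Rpl19 and Rpl23 have all 3-day points above all control points, while Rps29, Rplp0, Rpl39 and Rpl11 overlap.

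Counting all 42 genes, 3 had every 3-day array above every control (Rps16, Rpl19 and Rpl23), where 4.73% of all tested probe sets did, and 2 had every 3-day array below every control (Rps10 and Rps4x-ps9), where 3.01% did. Either separation at 3 days was thus seen in 5 of 42 genes (11.9%), against 14.7% of the brightest 10%. At 1 day 0 genes lay wholly above the controls (background 2.63%) and 4 lay wholly below (background 1.58%): Rpl30, Rps16, Rpl4 and Rpl36al1. Between 3 days and 1 day, 3 genes were wholly higher (Rps16, Rpl19 and Rpl27a; background 3.05%) and 0 wholly lower (background 2.67%). Either separation was seen at 1 day against control in 9.52% of the genes and 3.05% of the brightest 10%, and between the 2 times in 7.14% and 11.2%.

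Among genes lower at 3 days, Rpl39, a small protein of the peptide exit tunnel encoded on the X chromosome, had signals of 339, 555 and 211 in controls, 268, 226 and 293 at 1 day and 261, 199 and 158 at 3 days. The 3-day and control arrays overlapped because control c read below 3-day a. The log2 fold change at 3 days was -0.75 ± 0.35 (limma adjusted p = 0.9998), and it was -0.40 without the control b array. Rps4x-ps9, annotated as a pseudogene, had 80.9, 46.1 and 83.6 at 3 days, against 105, 91.0 and 129 in controls, without overlap, and a log2 fold change of -0.63 ± 0.35, which was -0.36 without the 3-day b array. Rps10 of the 40S subunit, a target of ubiquitination on collided ribosomes, had 573, 742 and 696 at 3 days, against 753, 847 and 760 in controls. Its groups were separate, with 3-day b just below control a, and its log2 fold change was -0.24 ± 0.21.

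Several of the lowest fold changes came from 1 or 2 arrays. A signal under 25% of the probe set's own 9-array median was counted as an isolated low value, a measure chosen after the values were seen. Of the 60 tested member probe sets, 3 had one on the 1-day c array and 4 had one on the 3-day b array, where 302 (5.76%) and 175 (3.34%) of all 5247 tested probe sets had one. The other 7 arrays had none among the members, where 14 to 122 of all tested probe sets (0.27% to 2.3%) had one.

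Rpl30, a 60S protein also known to bind selenoprotein messenger RNAs, had the lowest fold change at 1 day. Its signals were 26.8, 62.9 and 34.3 in controls, 9.4, 15.4 and 1.0 at 1 day and 9.4, 54.5 and 11.3 at 3 days, so all 1-day arrays lay below the controls in a dim range. The log2 fold change was -1.97 ± 0.73 at 1 day, the only member value of that comparison with an unadjusted limma p under 0.05, and its limma adjusted p was 1.00. Without the 1-day c array it was -1.41 ± 0.71, and with a pseudocount of 16 in place of 4 it was -1.22.

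Rpl17, which sits at the rim of the exit tunnel, had 106, 116 and 71.2 in controls, 58.9, 103 and 8.7 at 1 day and 77.6, 85.9 and 72.8 at 3 days. Apart from the 1-day c array the groups overlapped; the log2 fold change of -1.18 ± 0.63 at 1 day became -0.28 ± 0.35 without it. Rpl6, a 60S protein, read 279 on the 1-day c array and 700 to 1149 on the other 8. Its log2 fold change at 1 day was -0.62 ± 0.42, and -0.07 ± 0.30 without that array. Rps9, a 40S protein that binds ribosomal RNA early in assembly, read 491 there and 797 to 1299 elsewhere, with -0.44 ± 0.32 at 1 day and -0.10 ± 0.28 without it.

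Rpl4, whose long loop lines the exit tunnel, had 687, 464 and 503 in controls, 447, 364 and 387 at 1 day and 598, 18.7 and 461 at 3 days. Its 1-day arrays lay below all controls, and at 3 days only the b array stood apart. The log2 fold change at 3 days was -1.56 ± 0.95, and -0.05 ± 0.28 without the b array. Rpl22, an RNA-binding 60S protein, had 594, 493 and 798 in controls, 612, 338 and 138 at 1 day and 638, 31.9 and 526 at 3 days. Its log2 fold change at 3 days was -1.43 ± 0.93, and -0.09 ± 0.52 without the 3-day b array. Rpl36al1, an L36a-like gene, shared both low arrays, with 94.4 on 1-day c and 68.3 on 3-day b against 267 to 358 on the other 7. Its log2 fold change was -0.74 ± 0.57 at 1 day and -0.23 ± 0.54 without 1-day c; at 3 days it was -0.81 ± 0.57, and -0.11 ± 0.43 without 3-day b.

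**Figure D4:**
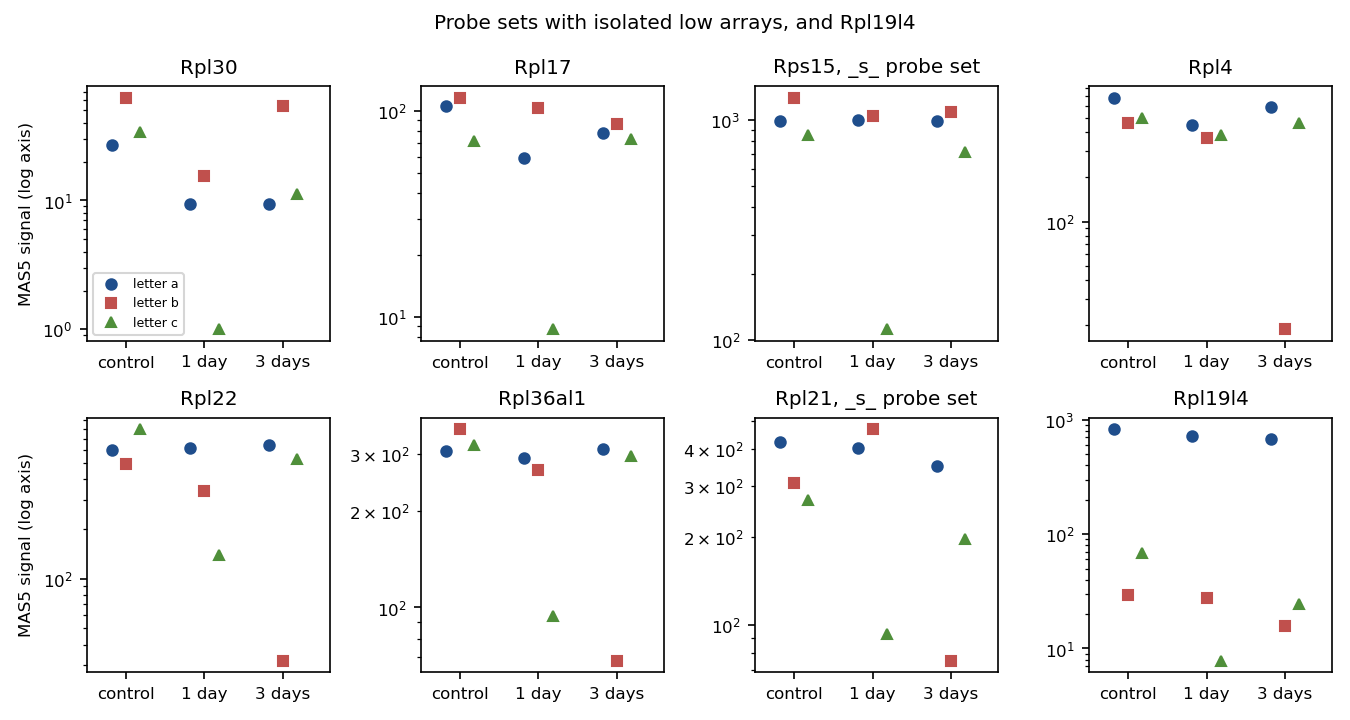
MAS5 signal on a log axis for 7 probe sets with an isolated low value and for Rpl19l4, 1 point per array with the letter as its symbol. Points under 25% of the 9-array median are on 1-day c (Rpl30, Rpl17 and an Rps15 probe set) and on 3-day b (Rpl4, Rpl22, Rpl36al1 and an Rpl21 probe set). On 1-day c, Rpl22, Rpl36al1 and the Rpl21 probe set were also low, at 26.2%, 32.0% and 30.4% of that median. The 3 a arrays of Rpl19l4 lie between 681 and 829, above all others.

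The replicate letter also separated arrays. Rpl19l4, named Rpl19-like by the annotation, read 829, 714 and 681 on the a arrays of the control, 1-day and 3-day groups. It read 29.2, 27.5 and 15.6 on the b arrays and 68.2, 7.8 and 24.5 on the c arrays. In the fit with the replicate letter as a block, a limma F test of the letter, chosen after the values were seen, called this probe set alone of the 60 members (limma adjusted p = 0.0027), where 3.56% of all tested probe sets were called. At an unadjusted p under 0.05 the letter reached 19 of the 60 member probe sets (31.7%) and 1574 of all 5247. What the letters stand for is not given in the labels.

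Arrays of 1 letter lay wholly above or below the other 6 for 25 of the 60 member probe sets (41.7%) and for 31.2% of all tested probe sets. The most frequent pattern among members was the b arrays above the rest, in 8 probe sets (13.3%, against 6.86% of all), of Rpl21, Rpl26, Rpl27, Rpl31, Rpl41, Rps27l and Rps6. Rpl41, which encodes a very short peptide, had 221, 294 and 311 on the b arrays of the control, 1-day and 3-day groups and 131 to 180 on the other 6. Rps27l, a p53-inducible paralog of Rps27, had 108, 150 and 186 on the b arrays and 64.1 to 91.8 on the others. Taking out the letter lowered the median residual SD of the member genes to 0.26 with the block, against 0.38 without it.

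Probe sets of one gene did not always give the same sign. Of the 15 genes with at least 2 tested probe sets, the signs differed for 8 at 1 day, 8 at 3 days and 5 between the times, with a median spread of 0.22, 0.17 and 0.21 on the log2 scale. Rps15 of the 40S subunit had 3 probe sets, with log2 fold changes of 0.24 ± 0.31, -0.06 ± 0.21 and -1.05 ± 0.68 at 1 day. The lowest of them read 112 on the 1-day c array and 714 to 1260 on the others, and it was -0.001 ± 0.28 without that array. Rpl21 of the 60S subunit had 4 probe sets, with log2 fold changes of 0.23, 0.14, -0.24 and -0.90 at 3 days, the last with 75.2 on the 3-day b array. Without that array it was -0.31 ± 0.61.

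**Figure D5:**
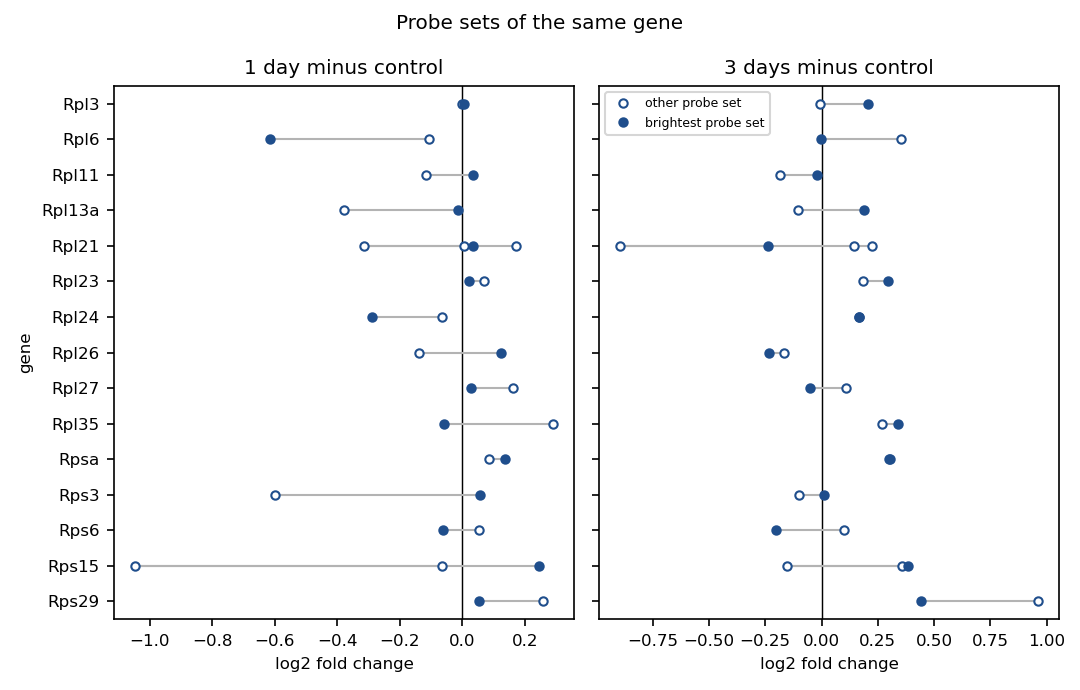
Log2 fold changes of all tested probe sets of the 15 genes with at least 2 of them (rows), the brightest probe set filled and the others open, joined by a line. The spread is widest for Rps15 at 1 day and for Rpl21 at 3 days. The probe sets of Rpsa and of Rpl23, each designed on 1 sequence, lie close together on the positive side in both panels.

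The Rpsa probe sets gave log2 fold changes of 0.09 and 0.13 at 1 day and 0.30 for both at 3 days. The Rpl23 probe sets gave 0.07 and 0.02 at 1 day and 0.18 and 0.30 at 3 days. Both Rpl23 probe sets had every 3-day array above every control. The probe sets of Rpsa were designed on 1 sequence, and so were those of Rpl23. Their agreement is therefore not independent.

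Among the paralogs and like genes, Rpl3l, known as a striated-muscle paralog of Rpl3, was dim, with 42.6 to 56.0 in controls, 30.8 to 96.6 at 1 day and 32.0 to 83.5 at 3 days. Its ubiquitous counterpart Rpl3, near the peptidyl transferase centre, had log2 fold changes of 0.004 ± 0.40 and 0.21 ± 0.40; its signals were 1353 to 2012 in controls, 1187 to 2033 at 1 day and 1054 to 3479 at 3 days, the last on the c array. The groups of both genes overlapped.

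Rpl14 of the 60S subunit had 207 to 300 at 1 day, against 213 to 242 in controls, a log2 fold change of 0.11 ± 0.24, which was -0.03 without the 1-day b array and 0.23 without 1-day a. Rpl26, also of the 60S subunit, had 900 to 1509 in controls, 1089 to 1463 at 1 day and 599 to 1687 at 3 days, with -0.36 ± 0.36 at 3 days against 1 day; this was -0.01 without the 3-day a array and -0.76 without 3-day b. Neither gene's groups were separate.

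The genes that build and run the ribosome were described by lists, and 0 genes of any list passed the test at either time. Of 13 tested genes of ribosome biogenesis and the nucleolus, 7 were higher and 6 lower than control at both 1 day (median 0.01) and 3 days (median 0.03). Within it Ubtf, the RNA polymerase I activator, had -1.04 ± 0.52 at 3 days, and the polymerase I subunits Polr1b and Polr1d had 0.47 ± 0.31 and -0.63 ± 0.41. Of 20 genes of translation initiation, 13 were higher at 1 day and 11 at 3 days, with medians of 0.08 and 0.07. This list mixes initiation factors with regulators that inhibit initiation, so its counts do not describe the factors alone. Among these regulators, the kinases Eif2ak2 and Eif2ak3 had 0.38 ± 0.41 and 0.51 ± 0.49 at 1 day, and Eif4ebp1 had -0.09 ± 0.46. Eif2d, which can deliver initiator tRNA, had -1.67 ± 0.58 at 1 day with signals of 5.2, 9.4 and 13.2, against 15.1, 74.0 and 41.6 in controls. The cap-binding homologue Eif4e2 had 0.66 ± 0.36, and at 3 days the helicase Eif4a2 and its cofactor Eif4h had 0.37 ± 0.31 and -0.38 ± 0.31.

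Of 6 elongation and termination genes, 4 were higher at 1 day and 5 at 3 days, with medians of 0.24 and 0.09. The higher genes at both times include Eef2k, an inhibitor of elongation, so these counts do not describe the factors alone. Pelo, which rescues stalled ribosomes, had -0.99 ± 0.34 at 1 day, with 27.6, 51.6 and 30.2 against 63.4, 65.0 and 96.7 in controls; these groups did not overlap and its limma adjusted p was 1.00. The elongation factor Eef2 had 0.61 ± 0.37 at 3 days, and its kinase Eef2k had 0.40 ± 0.34 at 1 day and 0.28 ± 0.34 at 3 days. Of 11 genes listed for other TOP transcripts, 5 were higher at 1 day and 6 at 3 days, with medians of -0.01 and 0.02. This list shares Eef1a1, Eef1g and Eef2 with the elongation list and Eif4a2 with the initiation list, so the lists are not independent. Rack1, a 40S-bound scaffold, had -0.50 ± 0.33 at 1 day and read 195 on the 1-day c array, against 348 to 535 elsewhere; the histone chaperone Nap1l1 had 0.31 ± 0.33.

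Of 14 mitochondrial ribosomal protein genes, 8 were higher at 1 day (median 0.12), 5 at 3 days (median -0.04) and 3 between 3 days and 1 day, where 11 were lower and the median was -0.19. Mrpl38 and Mrpl50 had 0.62 ± 0.33 and 0.47 ± 0.44 at 1 day, and Mrpl13 and Mrpl38 had -0.56 ± 0.35 and 0.30 ± 0.33 at 3 days. Of 10 genes of the S6 kinase and mTOR list, 4 were higher at 1 day (median -0.06) and 2 at 3 days (median -0.09). These counts and medians include Pdk1, the symbol of pyruvate dehydrogenase kinase 1, which is not a gene of this pathway. Pdk1 had -0.25 ± 0.32 at 1 day and -0.01 ± 0.32 at 3 days. The list also counts Tsc2, an inhibitor of mTOR signalling, which had -0.12 ± 0.32 at 1 day and 0.12 ± 0.32 at 3 days. The kinase Mtor had -0.25 ± 0.25 at 1 day, the GTPase Rraga 0.30 ± 0.38 at 1 day, and at 3 days Mlst8, an mTOR partner, had 0.37 ± 0.35 and the kinase Pdpk1 -0.27 ± 0.42. None of these differences passed the limma test.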

How the data were processed

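The deposited values are linear intensity signals that the authors obtained from MAS5, as the submitters' processing notes record; no version of it is given in the sources used here. MAS5 reduces the matched and mismatched probes of a probe set to a single signal, and 15 deposited intensity values were 0. Members were found through the platform annotation. By gene ID, 62 of 63 member probe sets matched the RefSeq gene table, and 0 symbols were updated. Where a gene had several probe sets, the brightest represented it. log2(signal + 4) was fitted with limma 3.58.1 in R 4.3.3 as 3 group means over 9 arrays (6 residual degrees of freedom), with an intensity trend, Benjamini-Hochberg adjustment over 5247 probe sets and a threshold of 0.05. Fold changes on this scale understate changes of dim genes. The fit was also run on simulated data, drawn with independent noise on each array and no effect of the replicate letter. Those data therefore lack the pairing of arrays by letter given below. Members and lists were chosen with earlier results of these data known. Genes were named by role, or as the 5 member genes in each direction (2 genes for other lists) with the smallest unadjusted p, or for probe sets that differ in sign; Rps10, Rpl3, Rpl41 and the other genes listed by letter pattern were named after their values were seen. The replicate letters pair the arrays: deviations from group means correlated at 0.17 to 0.47 between arrays of the same letter and at -0.33 to 0.12 otherwise, over probe sets. Alternatives were 19 other fits: pseudocounts of 1 and 16, filters, scalings, no trend, the groups compared alone, each array left out, both narrow-range arrays left out and the letter as a block.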

Additional observations from a re-analysis of the deposited data

How the results depend on the processing

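The counts of called genes were 0 in all 19 other fits for members and for all probe sets, in every comparison. The F test also called 0 in each fit that had one, and the groups compared alone had none. With the replicate block the lowest limma adjusted p of a member was 0.770, in the comparison of 3 days with 1 day, and the block changed no call. The median over members at 1 day against control was -0.12 to -0.048 with 1 array left out. The median over members at 3 days against control was -0.11 under quantile normalization and -0.039 to 0.060 with 1 array left out. At 3 days against 1 day it was -0.024 under quantile normalization, 0.042 without the control c and 1-day c arrays and 0.042 to 0.18 with 1 array left out. Without those 2 arrays Rpl6 and Rps9 turned to 0.088 and 0.040 at 1 day. Under quantile normalization Rpl23, Rps29 and Rpl27a turned to -0.021, -0.056 and -0.070 at 3 days. Rpl4 at 3 days against 1 day ranged over -1.97 to 0.40 with 1 array left out, the highest without 3-day b. The cause of the other turns was not tested. Over 944 values of named genes under alternatives, 46 changed sign, 6 of them where the value first given was larger than its SE, and 0 passed the test. With 3 arrays in a group and no detection calls used, differences of dim members such as Rpl5 and Rpl30 rest on signals near background.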
